A study of Sus scrofa with 36 samples.

Results

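The report concerns 9 genes of Hedgehog signalling and of cerebellar granule cell progenitors in the cerebellum of piglets: the ligand SHH, the receptors and receptor partners PTCH1, SMO and HHIP, the transcription factors GLI1, GLI2 and GLI3, and the progenitor genes ATOH1 and MYCN. They were chosen by name and not by a rule on their values, though with earlier results of these data known. The aim was to ask how much activity of the external granular layer remained in these piglets and how it varied. All 9 were found among the 31907 gene identifiers counted, and all 9 were among the 15356 genes that passed the filter on low counts.

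RNA was taken from cerebellar tissue of 36 term-born Danish landrace × Yorkshire × Duroc piglets of both sexes, which from 3 days of age were fed formula for 3 weeks, with its fat from vegetable oil (VEG) or from bovine milk (MILK). Piglets were of normal birth weight (NBW, NORM in the labels) or intrauterine growth restricted (IUGR, a very low birth weight with an altered head shape), with 9 piglets in each of the 4 groups. Piglets came from several litters, and neither litter nor the day of killing is in the labels, so the p-values treat littermates as independent. All values below are of 33 piglets, 8 each of VEG-NBW, VEG-IUGR and MILK-NBW and 9 of MILK-IUGR.

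In the developing cerebellum, Purkinje cells release SHH, which keeps the granule cell progenitors of the external granular layer dividing. SHH binds PTCH1, which then no longer holds back SMO, and SMO signalling turns the GLI proteins into activators. GLI1, PTCH1 and HHIP are themselves classical targets of the pathway, MYCN drives the progenitors' divisions, and ATOH1 is the transcription factor that defines them and is lost as they become neurons. The layer is transient and empties as its cells migrate inwards and mature.

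Depth was similar across the 33 libraries, with 15516541 to 23027502 read pairs on genes and 26.7% to 30.5% of read pairs without a gene. The 3 libraries left out had 31.5% to 64.3% without a gene, and in 1 of them, piglet 210 of VEG-IUGR, all 9 genes had a count of 0. Within the 33, piglet 207 of MILK-IUGR stood apart: it was the lowest of all 33 piglets for GLI1, GLI2, GLI3, PTCH1 and MYCN, the next to lowest for SMO, and 3rd from the lowest for ATOH1, while it ranked 18th from the lowest for SHH and 28th for HHIP. Its summed level of 8 oligodendrocyte markers was next to the highest of the 33 and its summed level of 5 meningeal markers was the lowest, and their part in its values was not tested. The comparisons of the 9 members between groups are therefore also given without it, as are the relations that rested on it. The tissue held the markers of cerebellum, with all 8 granule neuron and all 10 Purkinje cell markers past the filter, and none of the 6 brainstem markers, HOXA2 and HOXB2 among them, passed it. Choroid plexus markers (TTR, KCNJ13, AQP1 and CLIC6) summed to 4.23 to 39.4 CPM (counts per 1000000 on genes) in MILK-NBW and reached 191 CPM in VEG-NBW, 296 CPM in VEG-IUGR and 1612 CPM in MILK-IUGR. The medians of this sum lay close together, at 19.5 CPM in VEG-NBW, 19.5 CPM in VEG-IUGR, 24.7 CPM in MILK-NBW and 24.0 CPM in MILK-IUGR. In bulk tissue, fewer cells of a type and less RNA per cell cannot be told apart.

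All 9 genes were detected in each of the 33 piglets. Levels are CPM, scaled between libraries by the trimmed mean of M-values (TMM), and are compared between piglets for 1 gene, never between genes, because CPM does not correct for gene length.

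SHH, the ligand (ENSSSCG00000016416, Sscrofa11.1 chr18:2546202-2555484), was the most thinly counted, with 11 to 47 read pairs per piglet and a median of 27. Its level was 1.17, 1.71 and 2.43 CPM (lowest, median, highest) in VEG-NBW, 0.928, 1.57 and 2.29 CPM in VEG-IUGR, 0.624, 1.52 and 1.99 CPM in MILK-NBW, and 0.745, 1.65 and 2.15 CPM in MILK-IUGR. The groups overlapped almost entirely. The coefficient of variation (CV) between piglets was 26.8%, and counting error alone would give 18.6%, or 47.8% of the variance. The smallest difference in SHH that could be detected was not computed.

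PTCH1, the SHH receptor (ENSSSCG00000027312, chr10:26627165-26703225), had a median of 1594 read pairs and a CV of 13.0%, the lowest of the 9. It ranged from 70.8 to 110 CPM in VEG-NBW (median 87.5), from 75.2 to 97.6 CPM in VEG-IUGR (median 84.3), from 82.3 to 105 CPM in MILK-NBW (median 88.0) and from 44.6 to 97.0 CPM in MILK-IUGR (median 90.0). The group medians lay close together, and the value of 44.6 CPM is piglet 207, whose nearest group mate had 83.3 CPM.

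SMO, the transducer that PTCH1 inhibits (ENSSSCG00000016569, chr18:19450730-19478796), was also steady between piglets (CV 13.6%). Its level was 34.5, 41.0 and 48.5 CPM (lowest, median, highest) in VEG-NBW, 32.1, 44.0 and 54.1 CPM in VEG-IUGR, 40.2, 42.3 and 54.4 CPM in MILK-NBW, and 32.3, 38.7 and 41.7 CPM in MILK-IUGR. MILK-IUGR had the lowest median and the lowest upper end, and it overlapped each of the other groups.

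HHIP, a membrane protein that binds Hedgehog ligands and so limits the pathway (ENSSSCG00000009045, chr8:83583735-83678368), varied most, with a CV of 29.2% against a median of 14.3% over all genes with a symbol. Counting error made up 2.40% of its variance, and its biological coefficient of variation in edgeR was 0.27 against a median of 0.14 over all genes tested. It spanned 14.0 to 38.8 CPM in VEG-NBW, 16.2 to 51.3 CPM in VEG-IUGR, 23.6 to 34.3 CPM in MILK-NBW and 17.4 to 35.3 CPM in MILK-IUGR, with medians of 22.0, 26.3, 27.2 and 25.4 CPM. The piglets of the VEG diet held both the lowest and the highest values.

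GLI1, the activator whose transcription depends on the pathway (ENSSSCG00000000443, chr5:22736325-22747421), had a median of 116 read pairs and a CV of 19.6%. Its medians were 6.38 CPM in VEG-NBW (5.19 to 7.65), 5.98 CPM in VEG-IUGR (4.08 to 8.10), 6.84 CPM in MILK-NBW (5.99 to 7.84) and 6.44 CPM in MILK-IUGR (3.41 to 10.3). The lowest and the highest piglet were both of MILK-IUGR.

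GLI2, the main activator early in the response (ENSSSCG00000015733, chr15:30312528-30580272), and GLI3, which acts mostly as a repressor (ENSSSCG00000016763, chr18:52403463-52697906), had CVs of 24.8% and 18.7%. GLI2 had medians of 8.83 CPM in VEG-NBW (5.87 to 12.7), 10.2 CPM in VEG-IUGR (8.09 to 13.2), 9.56 CPM in MILK-NBW (8.69 to 12.004) and 8.82 CPM in MILK-IUGR (2.62 to 14.3). GLI3 had medians of 16.9 CPM in VEG-NBW (14.2 to 19.8), 20.7 CPM in VEG-IUGR (16.3 to 23.4), 19.2 CPM in MILK-NBW (16.2 to 22.6) and 17.1 CPM in MILK-IUGR (6.83 to 21.8). Both had their lower medians in VEG-NBW and MILK-IUGR and their higher medians in VEG-IUGR and MILK-NBW, with all groups overlapping.

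ATOH1, the factor that defines granule cell progenitors (ENSSSCG00000009196, chr8:125768232-125770619), was counted 81 to 305 times per piglet, with a median of 146 and a CV of 26.0%. It was thus still transcribed in every piglet at the end of the feeding period. Its level was 6.35, 7.95 and 14.5 CPM (lowest, median, highest) in VEG-NBW, 7.71, 9.87 and 12.5 CPM in VEG-IUGR, 4.59, 8.06 and 10.9 CPM in MILK-NBW, and 4.72, 7.89 and 9.29 CPM in MILK-IUGR. VEG-IUGR was the highest group by its median and its lowest value, and the single highest piglet, 222 of VEG-NBW, stood well above its group mates, the nearest of which had 8.35 CPM.

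MYCN, which drives progenitor proliferation downstream of SHH (ENSSSCG00000008618, chr3:121543201-121549678), had a CV of 17.3%. Its medians were 30.1 CPM in VEG-NBW (20.8 to 37.5), 33.4 CPM in VEG-IUGR (26.1 to 42.4), 29.3 CPM in MILK-NBW (24.0 to 36.9) and 29.7 CPM in MILK-IUGR (19.9 to 34.8). Only the VEG-IUGR group had piglets above 40 CPM.

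**Figure D1:**
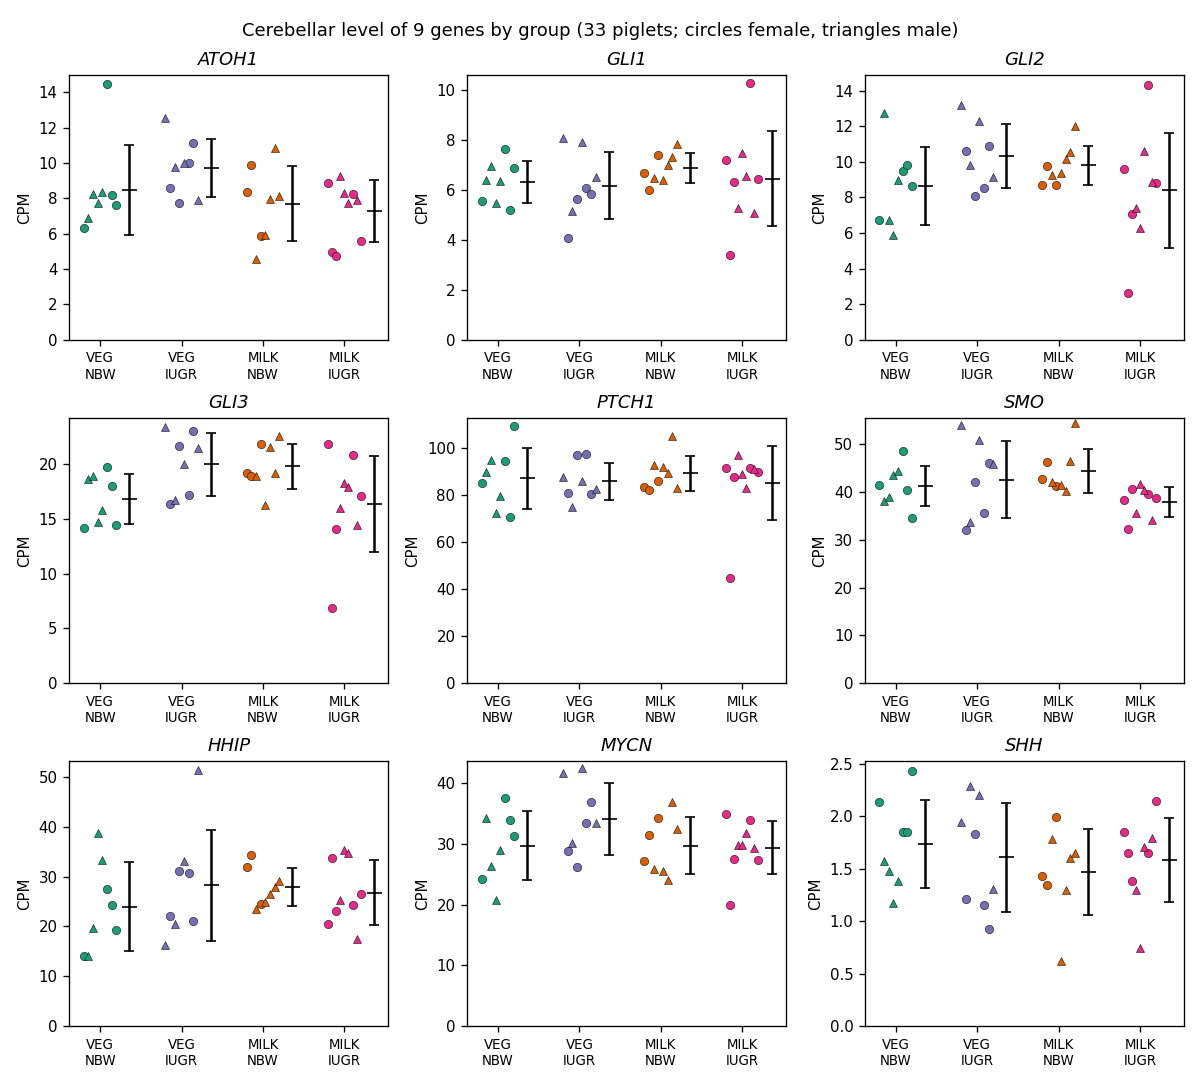
Level in CPM (vertical axis, from 0) of each of the 9 genes in each piglet by group, with the group mean and SD as a bar beside the points; circles are females and triangles males. The groups overlap for every gene, ATOH1 has 1 high piglet in VEG-NBW (14.5 CPM) and PTCH1 1 low piglet in MILK-IUGR (44.6 CPM).

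Whether the diet or the birth weight moved these genes was tested with edgeR's quasi-likelihood test with sex as a covariate and Benjamini-Hochberg adjustment over all 15356 genes. None of the 9 genes differed by diet or by birth weight, and none showed an interaction, at an adjusted p under 0.05. The same held for all genes tested (0% called in each). At an unadjusted p under 0.05, 654 genes differed by diet (4.26%), 337 by birth weight (2.19%) and 935 in the interaction (6.09%), and among the 9 members the counts were 1, 0 and 2. These 3 differences did not pass the adjustment. DESeq2 and limma also called none of the 9.

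For diet, the member with the smallest p was ATOH1. It had 9.09 ± 2.15 CPM (SD, n = 16) in the VEG groups and 7.48 ± 1.88 CPM (SD, n = 17) in the MILK groups, a log2 fold change of -0.29 (SE 0.12, 95% CI -0.53 to -0.042, edgeR p = 0.0230, adjusted p = 0.985). Without piglet 222 the value was -0.22, with an unadjusted edgeR p of 0.0613, and piglet 222 was the only one of the 33 whose removal took the unadjusted p over 0.05. The other 8 members had log2 fold changes between -0.14 (SHH, SE 0.15) and 0.093 (GLI1, SE 0.10) for MILK minus VEG. The median over the 9 was -0.037 and over all genes -0.0035. Without piglet 207 ATOH1 had -0.25, still with an unadjusted p under 0.05. All 8 oligodendrocyte markers and all 8 Bergmann glia and astrocyte markers had positive log2 fold changes for diet (medians of 0.13 and 0.087, none called), and their part was not tested.

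For birth weight, the log2 fold changes of IUGR minus NBW lay between -0.088 (SMO, SE 0.065) and 0.097 (HHIP, SE 0.14). The widest 95% intervals were those of HHIP (-0.18 to 0.38) and SHH (-0.31 to 0.30), and that of PTCH1 ran from -0.19 to 0.10. ATOH1 had a value of 0.058 (SE 0.12), with an interval of -0.19 to 0.30. These intervals hold for each gene alone, without adjustment over all genes. They give the differences that the values leave possible and are not limits of detection. Without piglet 207 no member had an unadjusted p under 0.05 either. All 8 oligodendrocyte markers and all 4 choroid plexus markers had positive log2 fold changes for birth weight (medians of 0.13 and 1.04, none called), and their part was not tested.

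For the interaction, the difference between the diet effect in IUGR and that in NBW piglets was largest for GLI3, at -0.52 on the log2 scale (SE 0.19, 95% CI -0.90 to -0.13, edgeR adjusted p = 0.784). GLI3 had 16.8 ± 2.26 CPM in VEG-NBW (SD, n = 8), 20.0 ± 2.87 CPM in VEG-IUGR (SD, n = 8), 19.8 ± 2.07 CPM in MILK-NBW (SD, n = 8) and 16.4 ± 4.42 CPM in MILK-IUGR (SD, n = 9), or 17.5 ± 2.78 CPM (SD, n = 8) without piglet 207. Leaving out single libraries gave values of -0.58 to -0.42 for GLI3, with an unadjusted p under 0.05 each time and no edgeR adjusted p under 0.545, and the value nearest to 0 was that without piglet 207. SMO, the only other member with an unadjusted p under 0.05, had -0.26 (SE 0.12, edgeR adjusted p = 0.784), and its unadjusted p was no longer under 0.05 without any 1 of 16 of the 33 libraries. GLI2 had -0.47 (SE 0.26), HHIP -0.28 (SE 0.28) and ATOH1 -0.26 (SE 0.24), each at least as large as the difference of SMO but with an unadjusted p over 0.05. The interaction was negative in 8 of the 9 members, all but SHH at 0.17 (SE 0.31), with a median of -0.26 beside -0.0017 over all genes. Without piglet 207 it was negative in 6 of the 9, with a median of -0.21. Members vary together across piglets, so these counts are not of independent genes. All 8 oligodendrocyte markers also had negative values in the interaction (median -0.21), and all 4 choroid plexus markers had positive ones (median 3.95, 3 with an unadjusted p under 0.05). None of these markers was called, and their part in the members' values was not tested.

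**Figure D2:**
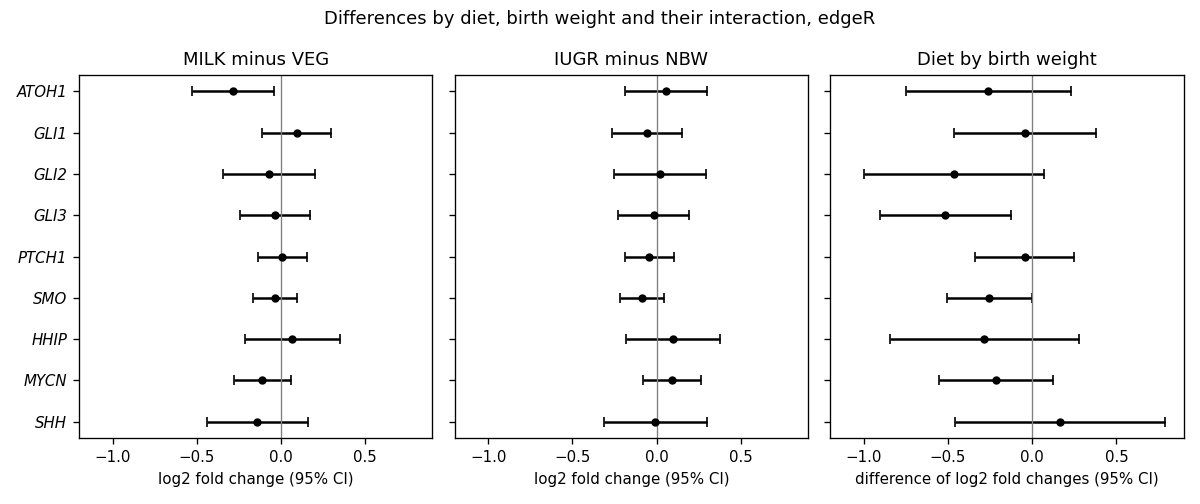
Log2 fold change (horizontal axis) of each gene for MILK minus VEG and IUGR minus NBW, and the difference of the diet effects between IUGR and NBW piglets, each with its 95% CI from edgeR as a bar. The intervals of ATOH1 for diet (-0.53 to -0.042) and of GLI3 and SMO for the interaction lie below 0 before adjustment over all genes, and all others include 0.

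Between single groups no member was called either, with 0% of all genes called in each of the 4 contrasts. In MILK-IUGR minus VEG-IUGR, where 599 genes (3.90%) had an unadjusted p under 0.05, ATOH1 differed by -0.41 (SE 0.17, edgeR adjusted p = 0.996) and GLI3 by -0.28 (SE 0.13, edgeR adjusted p = 0.996). ATOH1 had 9.70 ± 1.64 CPM in VEG-IUGR (SD, n = 8) and 7.28 ± 1.73 CPM in MILK-IUGR (SD, n = 9), and its unadjusted p stayed under 0.05 on leaving out each library in turn, while that of GLI3 did not without any 1 of 8 libraries. Without piglet 207 ATOH1 differed by -0.36 and GLI3 by -0.19, the latter with an unadjusted p over 0.05. In MILK-IUGR minus MILK-NBW, where 958 genes (6.24%) had an unadjusted p under 0.05, SMO differed by -0.21 (SE 0.087, edgeR adjusted p = 0.771), from 44.4 ± 4.65 CPM (SD, n = 8) to 37.9 ± 3.21 CPM (SD, n = 9), and by -0.19 without piglet 207. All 4 choroid plexus markers were higher at an unadjusted p under 0.05 in the same contrast (median 2.94, none called), and their part was not tested. The group medians of their summed level were nevertheless alike, 24.7 CPM in MILK-NBW and 24.0 CPM in MILK-IUGR. In MILK-NBW minus VEG-NBW and VEG-IUGR minus VEG-NBW, with 1025 (6.67%) and 351 (2.29%) such genes, no member had an unadjusted p under 0.05. Without piglet 207 GLI3 had one in both, with log2 fold changes of 0.23 and 0.25 (edgeR adjusted p = 0.609 and 0.999), among 1210 and 399 such genes of 15335 tested. Between males and females 25 genes were called (0.163%) and 451 had an unadjusted p under 0.05 (2.94%), in both cases without any of the 9 members, whose log2 fold changes lay between -0.13 and 0.12.

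The rest of the pathway gave no calls. Of 28 other Hedgehog pathway genes, 26 were matched and 24 passed the filter. IHH and DHH, the other ligands, did not pass it, and GAS1 was not matched. None of the 24 was called in any of the 8 comparisons, and their median log2 fold change was -0.018 by diet, -0.026 by birth weight and -0.071 in the interaction. SUFU, which restrains the GLI proteins, had a median of 19.4 CPM over the 33 piglets, and the SHH co-receptors BOC and CDON 71.6 and 23.2 CPM. For diet, BOC had a log2 fold change of -0.089 (SE 0.078) and CDON of -0.12 (SE 0.070). The 10 genes of the primary cilium, where the pathway signals, and 7 genes known to be induced by Hedgehog signalling in granule progenitors had 0 called in all comparisons. Of 12 granule lineage and progenitor genes and 13 genes of premigratory and migrating granule neurons, likewise 0 were called.

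Of 16 proliferation genes 12 were matched and 11 passed the filter, and none was called. MKI67, CCNA2, PCNA and RRM2 were not matched to an identifier, so nothing is known of their levels here. In MILK-IUGR minus VEG-IUGR all 11 had negative log2 fold changes, with a median of -0.17 beside -0.00098 over all genes. Of the 11, 3 had an unadjusted p under 0.05, as did 3.90% of all genes. Of the 9 members 8 were negative too, ATOH1 and MYCN (-0.21, SE 0.12) among them, and only GLI1 was positive (0.073, SE 0.14). In MILK-NBW minus VEG-NBW 8 of the 11 were negative and 3 positive, with a median of -0.056, and TYMS was positive at an unadjusted p under 0.05. In VEG-IUGR minus VEG-NBW 10 of the 11 were positive (median 0.11), and in MILK-IUGR minus MILK-NBW 5 were positive and 6 negative (median -0.045). In the former 1 was positive at an unadjusted p under 0.05, and in the latter 1 was negative. For the main effect of diet 10 of the 11 were negative and 1 positive (median -0.12), with 2 negative at an unadjusted p under 0.05. Across piglets 9 of the 11 had a Pearson's r over 0.5 with MYCN, so these counts are not of independent genes. Values of these 11 genes without piglet 207 are not given here. In MILK-IUGR minus VEG-IUGR all 5 meningeal markers had negative log2 fold changes (median -0.10) and all 4 choroid plexus markers positive ones (median 1.53), none of them called. Their part in the values of the proliferation genes was not tested. TOP2A, a topoisomerase of dividing cells, was counted 805 to 2199 times per piglet, with a median of 73.0 CPM. Transcripts of dividing cells were thus present in every piglet, and which cells carried them was not measured.

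How the 9 genes varied together from piglet to piglet was described by Pearson's r and Spearman's rho of log2 CPM (prior count 2) over the 33 piglets, with p-values from 100000 permutations and Benjamini-Hochberg adjustment over all 36 pairs. All values of a pair come from the same libraries and share their depth and scaling. Of the 36 pairs 17 had an adjusted p under 0.05 by r, all positive, and 8 by rho. The 3 GLI genes and MYCN formed the core of these pairs, and HHIP and SHH had none. Among all 12515 genes with a symbol, 1109 had an r over 0.5 with GLI3, 990 with PTCH1 and 811 with SMO. The counts were 629 for GLI2, 421 for GLI1, 346 for MYCN and 68 for ATOH1. For GLI3, MYCN ranked 491st of the 12515 by r and SMO 648th. GLI3 ranked 12th for GLI2 and 16th for GLI1, and MYCN 8th for ATOH1. Whether the 17 pairs are particular to these members was not tested.

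GLI2 and GLI3 had the highest r at 0.79 (rho 0.54, permutation p = 3e-05, adjusted p = 0.00036). GLI2 and MYCN followed with r = 0.72 (rho 0.63, permutation p = 2e-05, adjusted p = 0.00036), GLI1 and GLI3 with r = 0.70 (rho 0.64, permutation p = 2e-05, adjusted p = 0.00036), ATOH1 and MYCN with r = 0.64 (rho 0.61, permutation p = 7e-05, adjusted p = 0.00058), and GLI3 and MYCN with r = 0.62 (rho 0.56). Piglets with more of the progenitor factor ATOH1 tended to have more MYCN. Without the 2 piglets farthest from the median of the first gene, these r were 0.50, 0.59, 0.53, 0.61 and 0.50, and without piglet 207 they were 0.55, 0.66, 0.53, 0.58 and 0.51. GLI1 and SMO (r = 0.60, 0.53 without piglet 207) and GLI3 and SMO (r = 0.59, 0.55 without it) complete the 7 pairs that had an adjusted p under 0.05 without that piglet. GLI1 with GLI2 and GLI1 with MYCN were not among these 7. GLI1 and GLI2 went from r = 0.60 (rho 0.36) to 0.37 without piglet 207 and 0.23 without the 2 farthest. GLI1 and MYCN went from 0.55 (rho 0.50) to 0.42 in both cases.

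The relations of PTCH1 rested on piglet 207. GLI1, the usual readout of the pathway, and its fellow target PTCH1 had r = 0.60 (rho 0.36, permutation p = 0.00081, adjusted p = 0.0035) and r = 0.35 without this piglet. GLI3 and PTCH1 went from 0.59 to 0.0095, GLI2 and PTCH1 from 0.55 to -0.016, and PTCH1 and MYCN from 0.40 to 0.12. Among the other 32 piglets no pair with PTCH1 had an adjusted p under 0.05.

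HHIP, the other target gene, had r = 0.0073 with GLI1 and -0.26 with PTCH1, neither with an adjusted p under 0.05. SHH had r = 0.080 with GLI1 and 0.029 with PTCH1, likewise uncalled, and its levels carry the counting error given above.

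**Figure D3:**
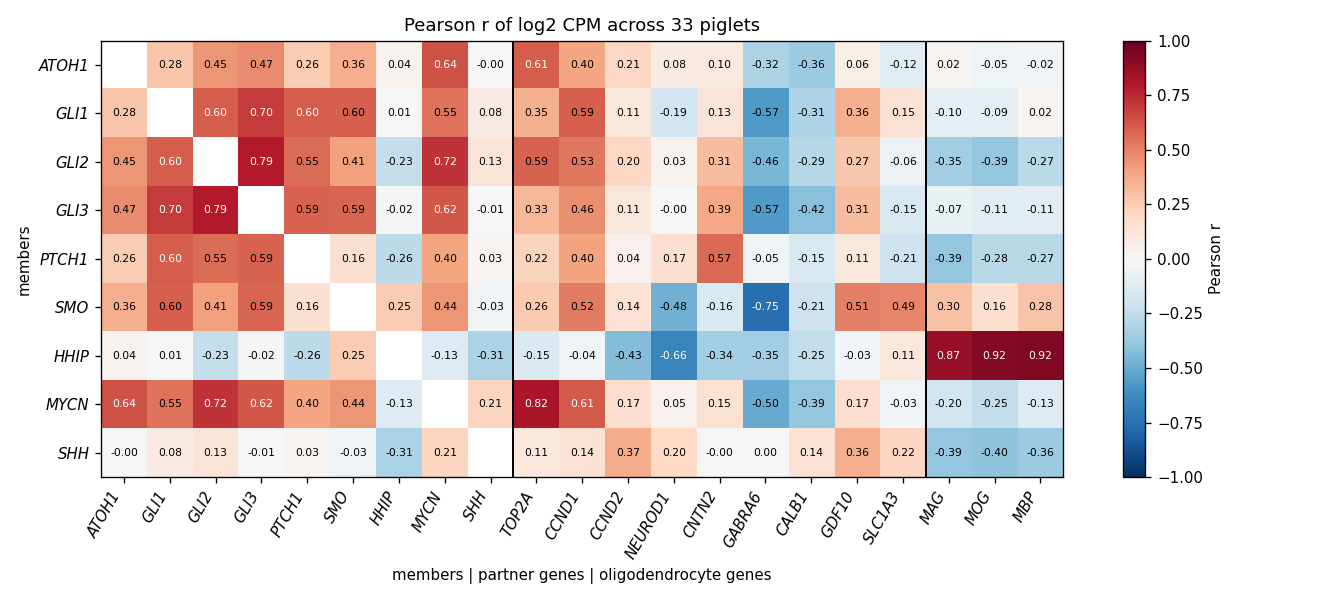
Pearson r of log2 CPM across 33 piglets between the 9 members (rows) and, in columns, the members, 9 partner genes and 3 oligodendrocyte genes; red is positive, blue is negative, and the value is printed in each cell. GLI1, GLI2, GLI3 and MYCN are red against each other (0.55 to 0.79), MYCN is red with TOP2A (0.82), and HHIP is pale against most members and dark red with MAG, MOG and MBP (0.87 to 0.92). Without piglet 207 the r of GLI1 was 0.37 with GLI2 and 0.42 with MYCN.

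Of 81 pairs of a member with 1 of 9 partner genes, markers of dividing cells and of other cerebellar cells, 18 had an adjusted p under 0.05 by r, 11 positive and 7 negative, and 16 by rho. MYCN and TOP2A were the closest, with r = 0.82 (rho 0.81, permutation p = 1e-05, the smallest that 100000 permutations can give, adjusted p = 0.0004). The relation was r = 0.84 without piglet 207, 0.81 without the 2 farthest piglets, and 0.62 to 0.91 within the 4 groups. TOP2A also went with ATOH1 (r = 0.61, permutation p = 0.00023, adjusted p = 0.003) and GLI2 (r = 0.59, adjusted permutation p = 0.0016).

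MYCN had an r over 0.5 with 9 of the 11 proliferation genes, with a median of 0.65, against 2.76% of all 12515 genes with a symbol. MCM3, a subunit of the replicative helicase, ranked 3rd of the 12515 for MYCN (r = 0.84) and TOP2A 8th. For ATOH1 the list's median r was 0.45, with 3 of 11 over 0.5 against 0.543% of all genes, and for GLI1 0.39, with 2 of 11 over 0.5 against 3.36%. The exceptions on the list for MYCN were MCM6 (r = 0.18) and TYMS (r = 0.22). MCM3, MCM6 and TYMS were picked after their values were seen.

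CCND1, the cyclin D1 gene induced by Hedgehog signalling in granule progenitors, had r = 0.61 with MYCN, 0.59 with GLI1, 0.53 with GLI2, 0.52 with SMO and 0.46 with GLI3, all with an adjusted permutation p under 0.05. CCND2, its counterpart, and NEUROD1, a factor of differentiating granule neurons, had no called pair with ATOH1, GLI1, GLI2, GLI3 or MYCN. Of the negative relations 5 were with GABRA6, a receptor subunit of mature granule neurons: r = -0.75 with SMO (permutation p = 1e-05, adjusted p = 0.0004), -0.57 with GLI3 and GLI1, -0.50 with MYCN and -0.46 with GLI2. SMO and GABRA6 had r = -0.73 without piglet 207 and -0.88 to -0.36 within the 4 groups. Within groups the r of GABRA6 ran from -0.82 to 0.23 with GLI1 and from -0.76 to 0.099 with MYCN. For each of these 5 members GABRA6 had the lowest r of the 8 mature granule neuron markers. The median r over the 8 was -0.31 for SMO, -0.18 for MYCN, -0.11 for GLI1, -0.095 for GLI2 and 0.036 for GLI3. For GLI2 and GLI3, 4 of the 8 were positive. SMO also had r = 0.51 with GDF10 and 0.49 with SLC1A3, genes of Bergmann glia, and -0.48 with NEUROD1. Within groups these r ran from 0.097 to 0.80, from -0.41 to 0.85 and from -0.63 to -0.28. CNTN2, an adhesion molecule of premigratory granule neurons, went with PTCH1 at r = 0.57, and 0.24 without piglet 207.

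HHIP varied with genes of myelin. Its r was over 0.5 with 7 of 8 oligodendrocyte markers, with a median of 0.88, against 7.71% of all genes. MBP, the myelin basic protein gene, had r = 0.92 (rho 0.92) and ranked 13th of the 12515 genes. MOG and MAG, further myelin proteins, had r = 0.92 and 0.87, and OLIG1 and OLIG2, transcription factors of the lineage, 0.88 and 0.85. PDGFRA, a marker of the precursors, had r = 0.61, and CSPG4, another precursor marker, 0.019. For MBP the r was 0.92 without piglet 207, 0.89 without the 2 farthest piglets, 0.93 after group and sex were removed, and 0.90 to 0.97 within the 4 groups. These genes are named after their values were seen and the relations are given without a test. With NEUROD1, HHIP had r = -0.66 (permutation p = 4e-05, adjusted p = 0.0011). The summed level of the 8 oligodendrocyte markers ran from 8366 to 47080 CPM over the 33 piglets, and its part in the spread of HHIP was not tested. No other member had an r over 0.5 with MBP, MOG or MAG, and the values lay between -0.40 and 0.30. Over all 8 markers GLI3 had r = 0.53 with CSPG4, and 0.33 without piglet 207. CSPG4 also had r = 0.41 with GLI1, 0.43 with GLI2 and 0.42 with PTCH1. Without piglet 207 these were 0.23, 0.17 and 0.14. SMO had a positive r with all 8, from 0.16 to 0.46.

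**Figure D4:**
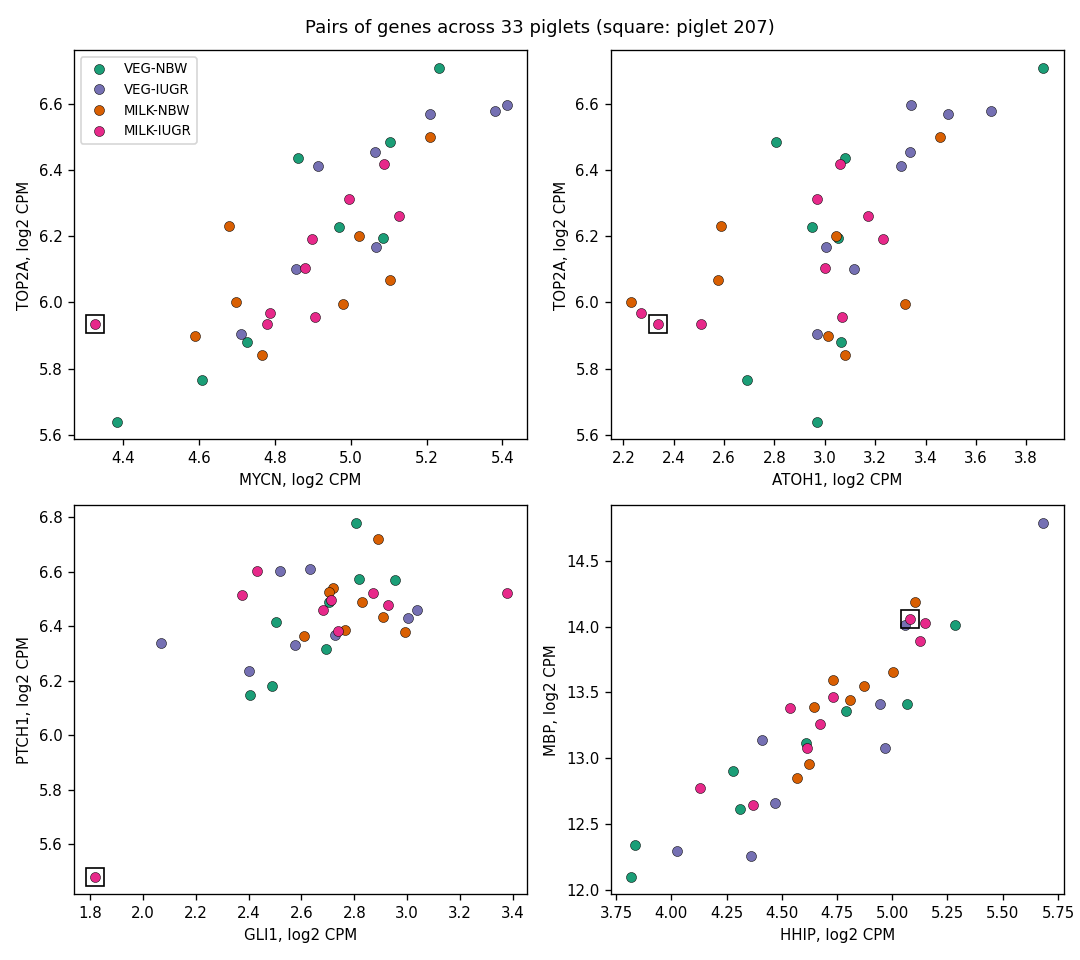
Log2 CPM of MYCN against TOP2A, ATOH1 against TOP2A, GLI1 against PTCH1 and HHIP against MBP, 1 point per piglet, coloured by group, with piglet 207 in a square. MYCN and TOP2A (r = 0.82) and HHIP and MBP (r = 0.92) rise along a line in all groups, while GLI1 and PTCH1 (r = 0.60) rest on piglet 207 and have r = 0.35 without it.

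The genes whose levels were most like those of 3 members were found among the 12515 genes with a symbol. For ATOH1 they were NCAPG (r = 0.68), a condensin subunit, KIF20A (r = 0.68), a mitotic kinesin, and INSM2 (r = 0.67), with 0.64, 0.65 and 0.71 without the 2 farthest piglets. For GLI1 they were NECTIN1 (r = 0.82), C14orf132 (r = 0.80) and FRMPD3 (r = 0.75, 0.56 without the 2 farthest). For SHH they reached only 0.52, MGAT4D and PGAP4 among them, and 0.0479% of all genes had an r over 0.5 with SHH, against 0.543% for ATOH1 and 3.36% for GLI1. MGAT4D had a median count of only 8. Without the 2 farthest piglets its r was 0.45 and that of PGAP4 0.52.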

How the data were processed

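Cerebellar RNA of 36 piglets was sequenced as paired 150-base reads. For each piglet the authors deposited a table of raw counts (read pairs per gene, by Ensembl pig identifier), with 5 further lines for reads without a gene, which were kept out of library sizes and tests. The submitters' processing notes name Trim Galore, HISAT2, HTSeq and DESeq2 and the build Sscrofa11.1. Annotation release and strand setting are not given in the sources used here, so reads of a gene and an antisense neighbour cannot be told apart. Of the 31907 identifiers, 15029 were matched to symbols, and gene spans are those of RefSeq on Sscrofa11.1. Sequences were not analysed here.

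The 9 genes and all gene lists were chosen with earlier results of these data known. The study dropped 3 unnamed libraries because of their RNA integrity, 1 of MILK-NBW and 2 fed VEG (1 NBW, 1 IUGR). Piglets 202, 210 and 213 were left out here, because their share of read pairs without a gene stood apart in their group by Dixon's rule, and all 36 libraries are an alternative. Groups, sex and piglet numbers come from the labels.

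Tests on counts were run with edgeR 4.0.16 under R 4.3.3 (TMM, filterByExpr with a minimum count of 10, quasi-likelihood F test). The 2 main effects came from an additive model with sex. The interaction, the 4 contrasts and sex came from a model of the 4 group means with sex. A gene was called at an adjusted p under 0.05. The test was tested on simulated counts with known changes. Correlations used log2 CPM with a prior count of 2 and 100000 permutations in Python 3.11.15 (NumPy 2.4.6, SciPy 1.17.1). All 9 members were to be named. Genes outside them are named if called, if they are partner genes of the correlations or receptors and regulators set beforehand by name, or if they are among the 3 genes most like GLI1, ATOH1 or SHH, and exceptions are stated. Some genes that this rule would name are not reported here. Alternatives were all 36 libraries, DESeq2 size factors, DESeq2 1.42.0, no sex term, no filter, limma 3.58.1 voom with quality weights, and leaving out each library. Leaving out piglet 207 and the alternatives for partner genes were added after the data were seen.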

Additional observations from a re-analysis of the deposited data

Results flagged for a closer look

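Of 36 sets of 1 member in 1 group, 5 had a piglet set apart from its group mates by Dixon's test at 95%, which chance gives in about 1 in 20 sets; sets of different genes share piglets and are not independent. ATOH1 was 14.5 CPM in piglet 222 of VEG-NBW, and the next highest piglet of that group had 8.35 CPM. PTCH1 was 105 CPM in piglet 230 of MILK-NBW, where the next had 92.8 CPM. PTCH1 was also set apart at the low end in MILK-IUGR, where piglet 207 had 44.6 CPM and the next lowest 83.3 CPM. The same piglet had the low value of MYCN in that group, 19.9 CPM against 27.3 CPM for the next. SMO was 54.4 CPM in piglet 234 of MILK-NBW, where the next had 46.6 CPM.

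Piglet 207 had 2.62 CPM of GLI2 and 6.83 CPM of GLI3, against lowest values of 5.87 and 14.0 CPM in the other 32 piglets. In the same library the 24 other Hedgehog pathway genes summed to 1176 CPM against 1207 to 1499 CPM in the other piglets, the Bergmann glia and astrocyte markers ranked 31st of 33 and the proliferation genes 8th.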

How the results depend on the processing

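No member was called in any comparison under any alternative run: all 36 libraries, DESeq2 size factors, DESeq2, no sex term, no filter, voom, 32 libraries without piglet 207, and each library left out. The count of genes called was 0 in the diet, birth weight, interaction and group contrasts, apart from 2 for the interaction with DESeq2; for MILK-NBW minus VEG-NBW 2 with DESeq2 and 1 with voom or without piglet 207; for MILK-IUGR minus MILK-NBW 2 with DESeq2 and 1 with size factors, without sex, with voom or without piglet 207. Leaving out each library gave 0 to 1 for these 2 contrasts. No analysis paired by litter was possible, because litter is not in the labels.

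Uncalled log2 fold changes near 0 turned sign. With all 36 libraries GLI1 was 0.23, PTCH1 0.24 and MYCN 0.0012 for the interaction, GLI3 0.036, SMO 0.053 and SHH 0.0095 for diet, and GLI2 -0.023 for birth weight. With voom GLI1 was 0.037 for the interaction and GLI2 -0.020 for birth weight. Without piglet 207 GLI1 was 0.032 and PTCH1 0.036 for the interaction, GLI3 0.022 for diet and 0.036 for birth weight. Leaving out each library gave -0.15 to 0.032 (GLI1) and -0.098 to 0.036 (PTCH1) for the interaction, -0.062 to 0.022 (GLI3) and -0.013 to 0.053 (PTCH1) for diet, and -0.041 to 0.079 (GLI2), -0.043 to 0.036 (GLI3) and -0.063 to 0.039 (SHH) for birth weight.

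The 17 called pairs of members became 36 with all 36 libraries, 9 without the 2 farthest piglets and 7 without piglet 207, and GLI2 with PTCH1 turned to -0.19 and -0.016 in the last 2. With all 36 libraries, where piglet 210 has a count of 0 for every member, all 81 partner pairs were called. Of the 18 pairs called in the 33 piglets, these turned sign: CCND1 with GLI1 (-0.81), GLI2 (-0.76), GLI3 (-0.85), SMO (-0.89) and MYCN (-0.87), GABRA6 with GLI1 (0.93), GLI2 (0.90), GLI3 (0.95), SMO (0.98) and MYCN (0.97), and NEUROD1 with SMO (0.98) and HHIP (0.94). Pairs not called in the 33 piglets turned sign too, among them PTCH1 with CCND1 (0.40 to -0.89) and ATOH1 with GABRA6 (-0.32 to 0.91). The cause of other changes was not tested. Depth limits SHH most, with a median of 27 read pairs.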
